A study of Homo sapiens with 4 samples.

Results

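The genes described here encode mTOR, its 2 complex-defining partners and the proteins that restrain or report its activity. They were chosen by gene symbol, as MTOR, RPTOR, RICTOR, TSC1, TSC2, DDIT4, SESN1, SESN2, SESN3 and EIF4EBP1, and all 10 were present among the 16834 genes of the expression table. RNA was sequenced from MIA PaCa-2 cells, an established human pancreatic ductal adenocarcinoma line, labelled wild type in every library. Cells were left as the control or treated for 12 h with 1 µM neobractatin (NBT), a natural compound from a Garcinia plant, with 5 µM of the MEK inhibitor trametinib, or with the 2 drugs together (the combination). Each condition was 1 library, so a difference between conditions has no replicate check, and no p-value or SD is given. The cell line entries of the labels number the line differently in each library, whereas all titles name MIA PaCa-2. In such bulk RNA, fewer cells of a kind and less RNA per cell cannot be told apart.

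The kinase mTOR works in a pair of complexes. With RPTOR it forms mTORC1, which is activated at the lysosomal surface by amino acids and growth factors and promotes protein synthesis, and with RICTOR it forms mTORC2, which phosphorylates AKT. The TSC1-TSC2 complex switches off RHEB, the small GTPase that activates mTORC1, whereas DDIT4 (also called REDD1) and the sestrins are stress-induced restraints of mTORC1. EIF4EBP1 is a substrate of mTORC1 that holds the cap-binding factor EIF4E when it is not phosphorylated. These data are RNA levels, and neither phosphorylation nor protein was measured in these libraries.

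The libraries held 18776212 (control), 19437747 (NBT), 18949915 (trametinib) and 19614763 (combination) estimated counts, so that 3 counts corresponded to 0.153 to 0.160 CPM (counts scaled to the library sum). DUSP6, a phosphatase gene induced by ERK signalling, had 329 counts in the control, 521 under NBT, 14 under trametinib and 9 in the combination. Of the epithelial markers, KRT8, KRT18 and EPCAM were abundant, and KRT19 was not in the expression table. EPCAM had 3502 counts in the control, while the mesenchymal marker VIM had only 202 to 500 across the libraries. Whether these levels are those of the named line was not tested. Of the markers of other cell types, PTPRC, PECAM1, COL1A1 and CPA1 stayed at or below 1.69 TPM (a level scaled to gene length and library) in every library. COL3A1, INS, GCG, PRSS1 and AMY2A were not in the expression table. The line markers differed with treatment. KRT8 had log2 ratios to the control of -0.20 under NBT, -0.75 under trametinib and -1.31 in the combination, KRT18 of -0.16, -1.56 and -1.62, VIM of 0.25, 1.06 and 1.24, and EPCAM of -0.15, -0.18 and -0.11. Their part in the results below was not tested.

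The SESN2 and DDIT4 promoters are shown because these restraints differed in how far they moved, and a short stretch of the TSC2 promoter because 3 of the motifs overlap there. SESN2 and DDIT4 are printed as the 250 bases before the annotated start, at chr1:28259268-28259517 and chr10:72273674-72273923, and TSC2 as bases -130 to -81 at chr16:2047855-2047904. All are on the plus strand of GRCh38.p14, from RefSeq, and capitals mark motif matches.
SESN2: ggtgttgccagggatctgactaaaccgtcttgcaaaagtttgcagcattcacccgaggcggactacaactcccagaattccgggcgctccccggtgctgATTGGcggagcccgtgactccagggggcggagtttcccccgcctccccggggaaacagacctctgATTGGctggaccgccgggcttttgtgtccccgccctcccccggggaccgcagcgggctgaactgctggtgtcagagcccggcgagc
DDIT4: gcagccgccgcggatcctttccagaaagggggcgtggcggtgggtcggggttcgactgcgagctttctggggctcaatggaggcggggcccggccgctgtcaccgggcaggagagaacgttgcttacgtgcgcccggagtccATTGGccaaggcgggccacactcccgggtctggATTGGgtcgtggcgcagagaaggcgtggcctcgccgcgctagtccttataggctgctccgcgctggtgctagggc
TSC2: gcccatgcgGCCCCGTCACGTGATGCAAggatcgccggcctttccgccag
Windows were available for 9 of the genes, 12 in all because SESN1 and TSC2 have several starts. TGATGNAA, the response element bound by ATF4, was found in 1 of the 12 windows, that of TSC2, and in 3.14% of 35116 windows of the same length across genes. CACGTG (an E-box, 6.34% of all windows) was also found in TSC2, and TGACNNNGC (the antioxidant response element, 10.9%) in TSC2 and SESN1. In TSC2 these matches overlap in the capitals printed above. GTAAACA (FOXO, 2.98%) was in none. CCAAT, searched after the sequences had been seen, was in 6 of 12 windows and in 32.0% of all, and gave the capitals in SESN2 and DDIT4, where it lies on the opposite strand and reads ATTGG. All motifs were searched on both strands. A match is a run of letters and not a measured binding site, and a missing match says only that the letters are not in the window.

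In the control library the levels of the genes spanned more than 3 orders of magnitude. EIF4EBP1 was highest at 431 TPM (416 to 446, 95% Poisson interval of its count), followed by DDIT4 at 262 (254 to 270). TSC2 stood at 55.1, RPTOR at 31.1, MTOR at 24.5, RICTOR at 14.3 and TSC1 at 9.95 TPM. SESN2 at 8.11 (7.17 to 9.14) and SESN1 at 5.78 (4.93 to 6.74) were low, and SESN3 at 0.06 TPM rested on 5 counts. No neighbours in this order had overlapping intervals, and the closest were TSC1 (9.28 to 10.7) and SESN2. In the trametinib library RICTOR (11.4 to 12.8) was not separated from SESN2 (12.8 to 15.4) or from TSC1 at 11.7 TPM, nor were RPTOR (22.2 to 24.5) and MTOR (20.5 to 22.5) in the combination. EIF4EBP1 and DDIT4 kept the 2 highest places and SESN3 the lowest in all 4 libraries, while SESN2 moved from the eighth place in the control to the third with NBT and the combination. All intervals given here measure counting error alone and not variation between cultures. They treat reads as independent, which PCR copies of a molecule are not.

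**Figure D1:**
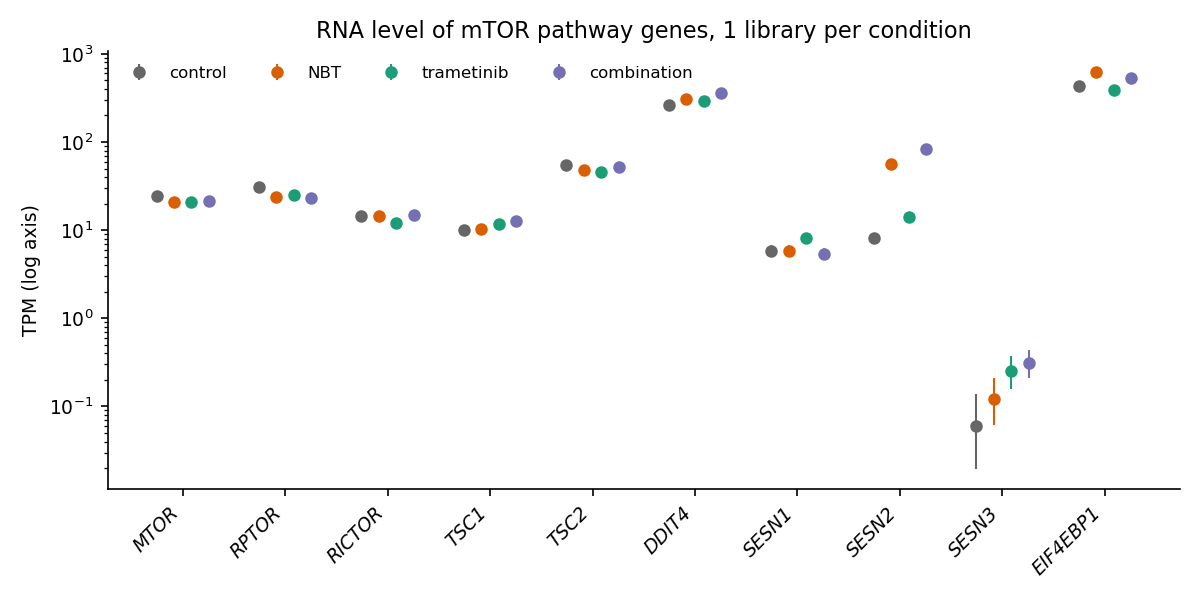
Level of each gene in TPM, on a log axis, with 1 point for each of the 4 libraries and bars for the 95% Poisson interval of its count. SESN2 spans 8.11 to 84.4 TPM, whereas MTOR stays between 21.0 and 24.5.

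The genes for the complexes themselves moved little. MTOR, the kinase shared by both complexes, had 1958 counts in the control, 1824 under NBT, 1749 under trametinib and 1851 in the combination. All treated libraries lay below the control, with log2 ratios of -0.15, -0.18 and -0.14. RPTOR, the scaffold of mTORC1, had 2002 counts in the control, 1653 under NBT, 1673 under trametinib and 1614 in the combination. Its log2 ratios to the control were -0.33 (95% counting interval -0.42 to -0.23), -0.27 (-0.37 to -0.18) and -0.37 (-0.47 to -0.28), the lowest among MTOR, RPTOR and RICTOR. RICTOR, the scaffold of mTORC2, had 1302 counts in the control, 1424 under NBT, 1129 under trametinib and 1468 in the combination. Its ratio was below 0 with trametinib (-0.22, -0.34 to -0.10) and near 0 with NBT (0.08, -0.03 to 0.19) and the combination (0.11, 0.00 to 0.22). None of MTOR, RPTOR and RICTOR passed the limits used to call a gene, an adjusted value of at most 0.05 in an exact binomial test of the 2 libraries and a log2 ratio of 1 or more in size.

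The ratio of RICTOR to RPTOR counts was also read within each library, where the scaling between libraries cancels. It was 0.650 (0.606 to 0.698) in the control and 0.675 (0.625 to 0.728) with trametinib. The ratio was 0.861 (0.802 to 0.925) with NBT and 0.910 (0.847 to 0.977) in the combination. Both libraries with NBT were above both without it, and the intervals of these pairs did not overlap. Per length, in TPM, the ratios were 0.460, 0.480, 0.616 and 0.646.

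**Figure D2:**
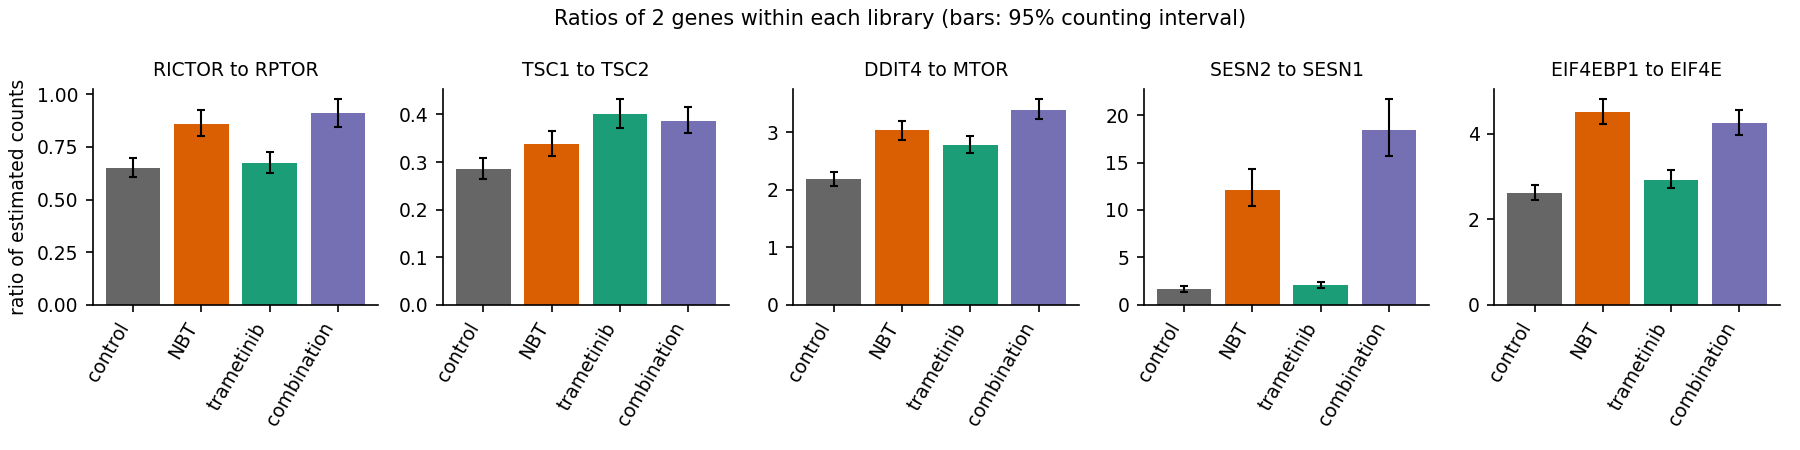
Ratio of the estimated counts of 2 genes within each library, with bars from 0 and lines for the 95% counting interval. RICTOR to RPTOR is 0.650 in the control and 0.910 in the combination, and SESN2 to SESN1 is 1.64 and 18.4.

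The subunits of the TSC complex differed from each other. TSC1, which stabilises TSC2, had 823 counts in the control, 913 under NBT, 991 under trametinib and 1131 in the combination, with log2 ratios of 0.10, 0.25 and 0.40. TSC2, the GTPase-activating subunit that acts on RHEB, had 2882, 2699, 2469 and 2921 counts in the same order. Its log2 ratios to the control were -0.14 (-0.22 to -0.07) under NBT, -0.24 (-0.31 to -0.16) under trametinib and -0.04 (-0.12 to 0.03) in the combination. The TSC1 to TSC2 count ratio was 0.286 in the control, 0.338 under NBT, 0.401 under trametinib and 0.387 in the combination. Neither gene passed the limits in any comparison.

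Among the stress-induced restraints, SESN2 had the highest log2 ratios with NBT and in the combination. SESN2, which binds leucine and inhibits the GATOR2 complex when leucine is absent, had 267 counts in the control, 2015 under NBT, 476 under trametinib and 2981 in the combination. SESN2 rose 7.28-fold (6.41 to 8.31) with NBT and 10.7-fold (9.43 to 12.2) in the combination. With trametinib alone the ratio was 1.76-fold (1.52 to 2.06), which did not pass the limit on the log2 ratio. Both libraries with NBT were far above both without it. Among genes with at least 100 counts in either library, SESN2 ranked 8 of 10408 from the highest log2 ratio with NBT and 16 of 10527 in the combination. SESN2 also rose 6.04-fold (5.49 to 6.68) from trametinib to the combination, rank 18 of 10572.

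SESN1 differed from SESN2. SESN3 had few counts, and its intervals overlapped those of SESN2 in all comparisons except that of the combination with trametinib. There SESN3 was at a log2 ratio of 0.37 (-0.44 to 1.23) and SESN2 at 2.60 (2.46 to 2.74). SESN1, a p53-responsive sestrin, had 163 counts in the control, 166 under NBT, 234 under trametinib and 162 in the combination. Only the trametinib library was above the rest, at a log2 ratio of 0.51 (0.21 to 0.81) to the control, and the combination was below it at -0.58 (-0.88 to -0.29). SESN1 did not pass the limits. SESN3, a FOXO-responsive sestrin, had 5, 12, 23 and 31 counts in the same order. It passed the limits with trametinib (log2 ratio 2.08, 0.76 to 3.94), in the combination (2.45, 1.19 to 4.29) and in the combination against NBT (1.32, 0.35 to 2.45), on counts so low that the intervals spanned several-fold. With NBT alone it was at 1.13 (-0.40 to 3.07), and 5 counts in the control limit what can be said of it. The calls with trametinib and against NBT were lost when a coefficient of variation of 0.2 between cultures was assumed. The SESN2 to SESN1 count ratio was 1.64 in the control, 12.1 under NBT, 2.03 under trametinib and 18.4 in the combination.

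DDIT4, which is induced by hypoxia and other stress and acts through the TSC complex, had 4285 counts in the control, 5524 under NBT, 4856 under trametinib and 6278 in the combination. Every treated library was above the control, with log2 ratios of 0.32 (0.26 to 0.37), 0.17 (0.11 to 0.23) and 0.49 (0.43 to 0.54), none of which passed the limits. With trametinib the value was 0.09 under TMM scaling and 0.10 under median-of-ratios scaling. Its count relative to that of MTOR in the same library was 2.19 in the control, 3.03 under NBT, 2.78 under trametinib and 3.39 in the combination.

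EIF4EBP1 had 3234 counts in the control, 5106 under NBT, 2977 under trametinib and 4288 in the combination. The NBT library was highest, at a log2 ratio of 0.61 (0.55 to 0.67), and trametinib was below the control at -0.13 (-0.21 to -0.06). The combination lay between them at 0.34 (0.28 to 0.41), above trametinib by 0.48 and below NBT by a log2 ratio of -0.26. None of these passed the limits. EIF4E, the factor it binds, had 1236, 1134, 1016 and 1008 counts, so that the EIF4EBP1 to EIF4E count ratio was 2.62 in the control, 4.50 under NBT, 2.93 under trametinib and 4.25 in the combination.

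**Figure D3:**
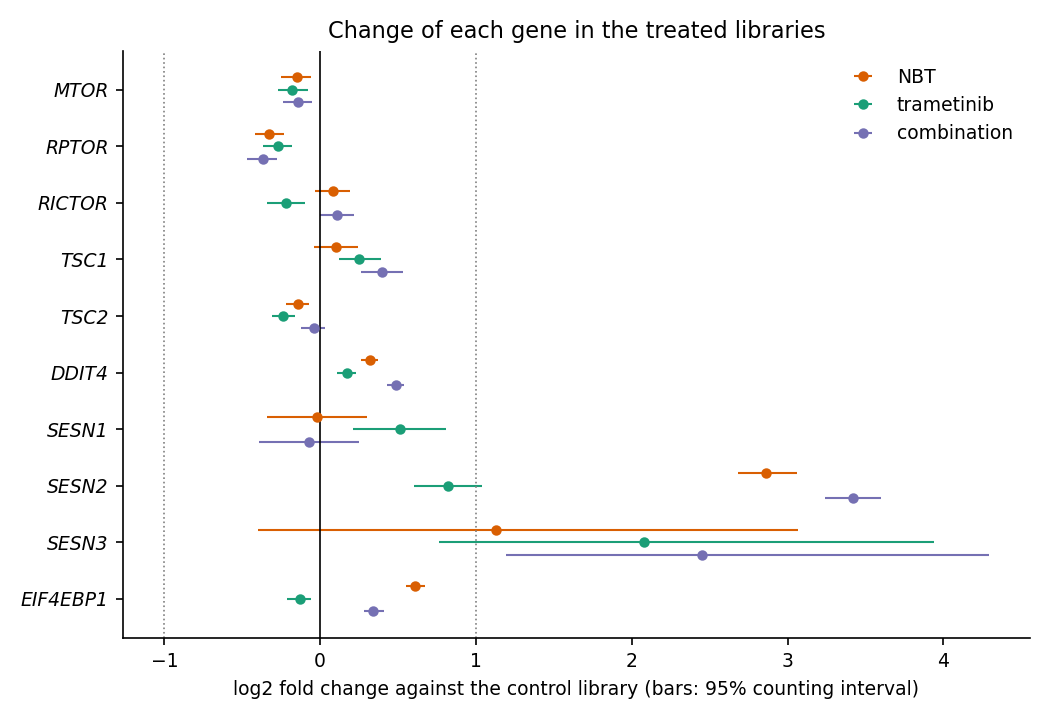
Log2 fold change of each gene against the control library, in counts scaled to the library sum, with 95% counting intervals and dotted lines at -1 and 1. SESN2 is at 2.86 with NBT and 3.42 in the combination, and MTOR, RPTOR, RICTOR, TSC1, TSC2, DDIT4, SESN1 and EIF4EBP1 lie between the dotted lines in all 3 comparisons.

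Over all 10 genes, 1 was higher and 0 lower past the limits with NBT (SESN2), against a background of 1.6% of 15888 genes higher and 1.01% lower. With trametinib 1 was higher (SESN3) and 0 lower, against 3.82% and 2.15% of 16197. With the combination 2 were higher (SESN2 and SESN3) and 0 lower, against 4.73% and 3.69% of 16229. From trametinib to the combination 1 was higher (SESN2) and 0 lower, against 2.56% and 3.55%, and from NBT to the combination 1 was higher (SESN3) and 0 lower, against 2.38% and 1.99%. With 10 genes, 1 call is 1 gene in 10 and is read as that gene's value only. The median log2 ratio of the 10 genes was 0.09 with NBT (all genes tested -0.01), 0.02 with trametinib (0.08) and 0.23 in the combination (0.05). The test compares 1 library with 1 library, and assuming that cultures vary with a coefficient of 0.4 left none of the 10 past the limits in any of the 5 comparisons.

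The comparison of NBT with the control and that of the combination with trametinib share no library, so the effect of NBT was set side by side without and with trametinib. SESN2 had log2 ratios of 2.86 and 2.60, DDIT4 0.32 and 0.32, EIF4EBP1 0.61 and 0.48 and TSC1 0.10 and 0.14. MTOR was at -0.15 and 0.03, RPTOR at -0.33 and -0.10 and RICTOR at 0.08 and 0.33. For TSC2 the sign differed, at -0.14 (-0.22 to -0.07) without trametinib and 0.19 (0.11 to 0.27) with it. For SESN1 the values were -0.02 and -0.58, and for SESN3, on few counts, 1.13 and 0.37. The log2 ratio of the combination minus those of both single drugs added up was 0.00 (-0.07 to 0.08) for DDIT4, 0.34 (0.23 to 0.45) for TSC2, 0.25 (0.09 to 0.41) for RICTOR, 0.22 (0.09 to 0.36) for RPTOR and 0.18 (0.05 to 0.32) for MTOR. It was -0.27 (-0.50 to -0.04) for SESN2, -0.56 (-0.98 to -0.13) for SESN1 and -0.13 (-0.22 to -0.04) for EIF4EBP1. For TSC1 (0.04, -0.14 to 0.22) and SESN3 (-0.76, -2.40 to 0.88) the interval held 0. Of the 9 genes with at least 50 counts in 1 library, 0 departed by 1 or more, against 2.33% of 11367 such genes. SESN3 had fewer counts, and its interval reached past -1.

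**Figure D4:**
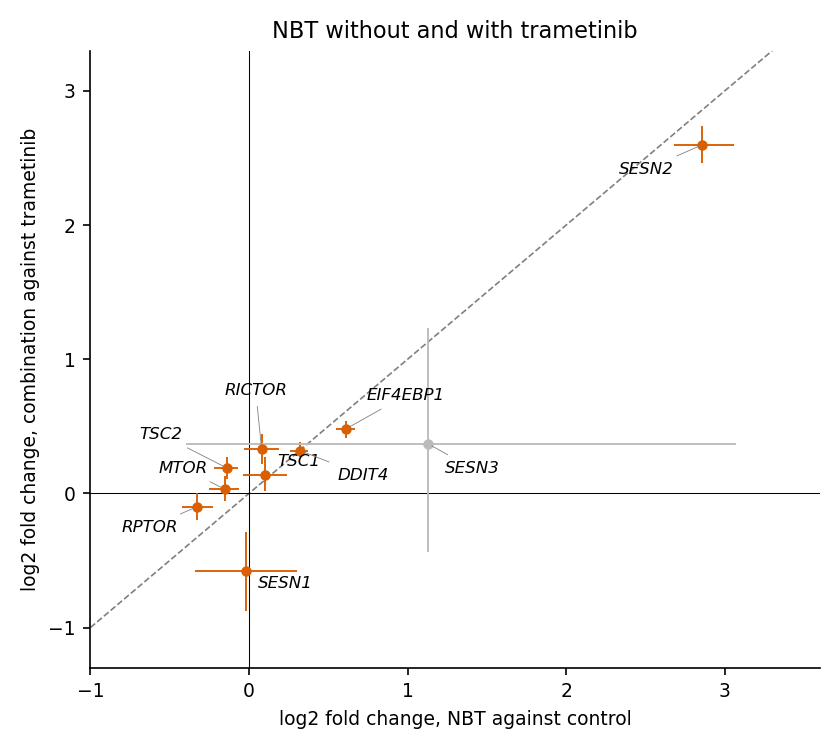
Log2 fold change of each gene for NBT against control (x) and for the combination against trametinib (y), with 95% counting intervals and a dashed line where both are equal. SESN2 is far to the upper right at 2.86 and 2.60, TSC2 is left of 0 on x and above 0 on y, and SESN3 is grey because it rests on 5 to 31 counts.

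Genes around the pathway were read from 6 lists of 82 genes, 81 of which were in the table. The subunits and assembly factors of the mTOR complexes (9 genes) and the amino acid input (28 genes) had 0 genes past the limits in each comparison with the control, with medians of -0.15, -0.12 and -0.17 and of 0.07, 0.13 and 0.13. Over all genes 2.61% (NBT), 5.96% (trametinib) and 8.42% (combination) passed in either direction, and nothing is read from a count of 0 in lists of this size. All the pathway genes together had 3 higher and 1 lower of 81 under NBT, 2 and 3 of 81 with trametinib, and 6 and 1 of 80 in the combination. The shares over all genes were 1.6% higher and 1.01% lower under NBT, 3.82% and 2.15% under trametinib and 4.73% and 3.69% in the combination, and these small counts are read gene by gene.

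Of the PI3K and AKT input, IRS1, the adaptor that links insulin receptors to PI3K, fell in all 3 comparisons, from 1569 counts in the control to 706 under NBT, 505 under trametinib and 340 in the combination (log2 ratios -1.20, -1.65 and -2.27). IRS2, its relative, had 726 counts in the control, 806 under NBT, 316 under trametinib and 622 in the combination, and fell with trametinib (-1.21). The other 8 genes of the list did not pass the limits. When cultures were assumed to vary with a coefficient of 0.2, the calls of IRS1 under NBT and of IRS2 under trametinib were lost. Of the energy input, PRKAB2, a regulatory subunit of AMPK, rose in the combination, from 1085 to 2642 counts (1.22), a call lost at the same assumed coefficient. RHEBL1, a RHEB relative, also passed the limits, higher with NBT and lower with trametinib, on 29, 72, 13 and 31 counts, and both calls were lost there too.

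Of the 15 targets and effectors, PDCD4, an inhibitor of translation initiation, rose in the combination (387 counts in the control, 774 under NBT, 768 with trametinib, 1268 in the combination, log2 ratio 1.65). ULK1, the kinase that starts autophagy and is inhibited by mTORC1, had 596, 971, 1162 and 1645 counts and also rose in the combination (1.40). The other 13 targets and effectors did not pass the limits in the comparisons with the control. Of the 9 stress regulators, DDIT3 (CHOP), a transcription factor of the unfolded protein response, had 196, 1298, 443 and 2589 counts and rose in all 3 comparisons (2.67, 1.16 and 3.66), of which the call under trametinib was lost with an assumed coefficient of 0.2. TRIB3, an AKT-binding pseudokinase, had 1070, 4499, 1306 and 5426 counts and rose with NBT (2.02) and the combination (2.28). ATF3 had 718, 1405, 2329 and 6091 counts and rose with trametinib (1.68) and the combination (3.02). ATF4, which activates SESN2 and DDIT4, had 8712, 13221, 10493 and 13418 counts and did not pass the limits.

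**Figure D5:**
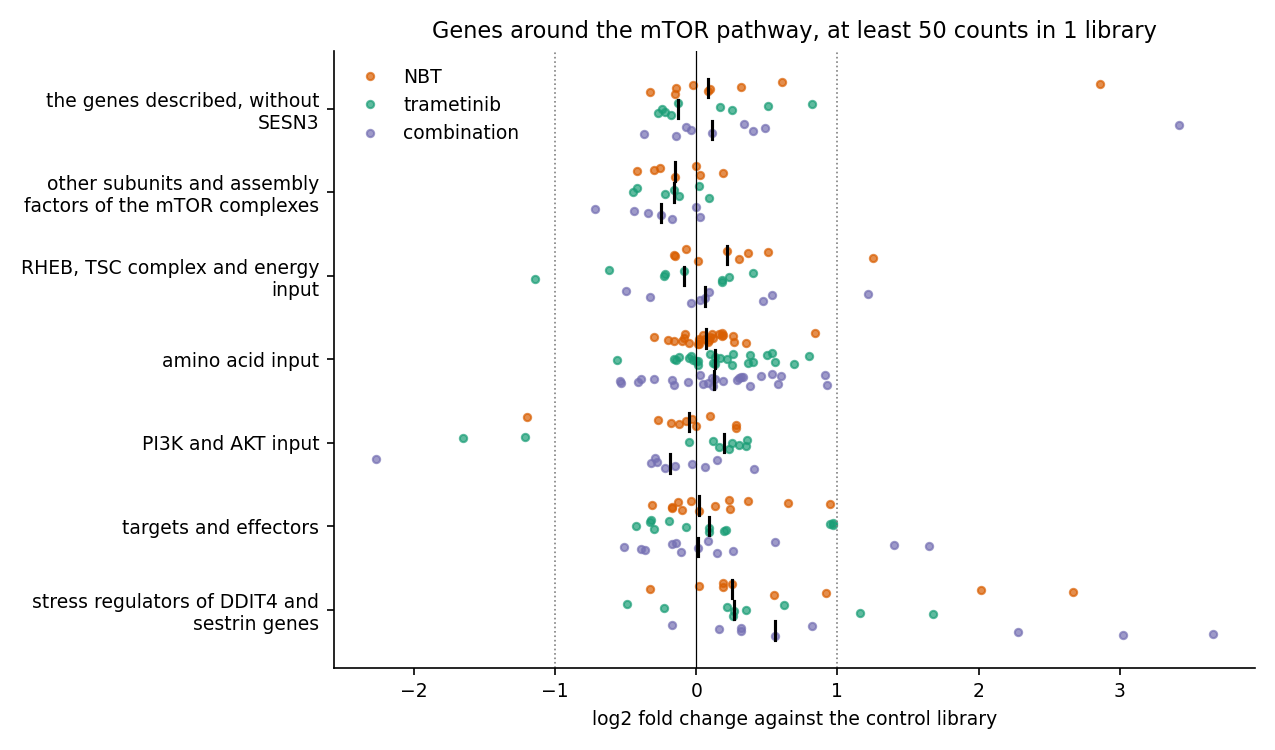
Log2 fold change against the control library of genes in each list with at least 50 counts in 1 library, 1 point per gene and comparison, with a black line at the median and dotted lines at -1 and 1. The stress regulators reach 3.66 (DDIT3, combination), while the median of the other subunits is -0.25 in the combination.

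The genes most like each restraint were those with the smallest Euclidean distance in centred log2 CPM over the 4 libraries, among 10662 genes with at least 100 counts in 1 library. With 4 points such likeness is a description only. For SESN2 the nearest was HERPUD1, an ER-stress gene (distance 0.19), then TMEM125, DDIT3, ADM2 and IGF2BP3. HERPUD1 had 908, 6615, 1364 and 9808 counts. For DDIT4 they were HMGN4, RAB1A, RHEB, PSMD4 and COPE, where RHEB, the mTORC1 activator, had log2 ratios of 0.30, 0.18 and 0.47. For SESN1 they were LANCL1, ZFYVE21, PIF1, TIMM8B and NDUFA12, and for SESN3 PHF11, CDKN1A, TSC22D3, DSG3 and ABHD4. SESN3 itself had only 5, 12, 23 and 31 counts, below the 100 asked of the other genes, so its neighbours rest on few reads.

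DDIT4, SESN2 and EIF4EBP1 each had 1 RefSeq transcript in the table, so their gene values are also their transcript values. The others had 2 to 13, with reads split by estimation. Reads of SESN3 were all on one transcript in the control, NBT and trametinib libraries and all on the other in the combination, and 1 TSC1 transcript held 735 of 1131 reads in the combination and at most 0.03 elsewhere. No change of isoform was read from these estimates. On GRCh38.p14 the RefSeq genes lie at chr1:11106535-11262551 (MTOR), chr17:80544838-80966368 (RPTOR), chr5:38937920-39074399 (RICTOR), chr9:132891349-132945378 (TSC1), chr16:2047985-2089491 (TSC2), chr10:72273924-72276036 (DDIT4), chr6:108984309-109094846 (SESN1), chr1:28259518-28282491 (SESN2) and chr11:95165513-95232475 (SESN3).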

How the data were processed

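Total RNA of 4 libraries was sequenced, and the labels' extraction text names removal of bacterial rRNA and random priming. The authors deposited, per gene and per transcript, an estimated count that is not normalized, and a TPM value scaled to length and library; deposited FPKM values were not used here. The submitters' processing notes name Bowtie2 2.2.5, RSEM 1.2.8 and hg38, with no role given. All 4 libraries were assigned by title and treatment.

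Estimated counts, not whole for 53.9% of genes, were rounded and scaled to library sums. Log2 ratios had 0.5 reads added. Genes counted at least once in 1 of the compared libraries were called by an exact two-sided binomial test with Benjamini-Hochberg adjustment (at most 0.05) and a log2 ratio of 1 or more in size, the limits of the study's methods. The p was the smaller tail doubled. A p summed over outcomes no likelier than the observed one had been computed first, and the doubled tail was adopted after both had been seen because it follows the earlier processing of these data. The first form called 439, 995, 1416, 1041 and 738 genes, and the reported form 414, 966, 1366, 998 and 709, in the order NBT, trametinib and combination against control, then combination against trametinib and against NBT. Intervals are 95% Clopper-Pearson or Poisson and cover counting error only. The calling was also run on data simulated without variation between cultures, which cannot show how the calls fare when cultures vary.

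Named pathway genes were those past the limits against the control with at least 100 counts, up to 6 a list. RHEBL1 was named in addition on fewer counts, as were genes that did not pass, such as EIF4E and ATF4. The members and lists were chosen with earlier results of these data known. Alternatives were TMM (edgeR 4.0.16) and median-of-ratios (DESeq2 1.42.0) scaling, TPM, 5 added reads, summed transcripts, a filter of 10 counts, assumed variation between cultures, other log2 limits and the other form of p. Python 3.11.15 and scipy 1.17.1 were used.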

Additional observations from a re-analysis of the deposited data

Results flagged for a closer look

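TSC2 was the 1 gene of the 10 whose log2 ratios had opposite signs under the same contrast with counting intervals that left out 0 on both sides. MTOR, RICTOR and SESN1 also had opposite signs in some of these pairs, with at least 1 interval of the pair holding 0. NBT against the control gave a log2 ratio of -0.14 and NBT on top of trametinib (combination against trametinib) gave 0.19, and trametinib against the control gave -0.24 while trametinib on top of NBT gave 0.10. The difference was not tested, since each condition was 1 library. The last value had an interval of 0.02 to 0.18, and under TMM scaling it was 0.07 with an interval of -0.01 to 0.14.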

How the results depend on the processing

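No paired analysis was possible because each condition was 1 library and the labels give no replicate numbers. Of 250 alternative log2 ratios of the 10 genes, 246 stayed within the counting interval and 4 did not, namely with TPM DDIT4 (0.25) and EIF4EBP1 (0.54) for NBT, and for trametinib DDIT4 with TMM (0.09) and median-of-ratios scaling (0.10). The sign differed for MTOR in the combination against NBT (-0.02 under both scalings, 0.01 as reported). SESN3 shifted by up to 1.09, and the other genes by at most 0.08. Counts of the 10 genes past the limits, in the order NBT, trametinib and combination against control, then combination against trametinib and against NBT, were 0, 0, 0, 0 and 0 with an assumed coefficient of variation of 0.4, and 6, 10, 7, 6 and 6 with no log2 limit. With a coefficient of 0.2 the counts for trametinib and for the combination against NBT were 0 (SESN3), and the latter was 0 also with TPM and with a log2 limit of 2. Counts of the pathway genes were 0, 0, 1, 0 and 0 with a coefficient of 0.4, and 38, 53, 51, 55 and 43 with no log2 limit. With a coefficient of 0.2 they were 2 (NBT), 2 (trametinib), 2 (combination against trametinib) and 1 (combination against NBT), and with a log2 limit of 2 they were 2, 0, 4, 2 and 1. The cause was not tested beyond what these settings themselves change. The form of the two-sided p, added after seeing the data, left the calls of the 10 genes as reported and added DEPTOR (17 and 36 counts) for NBT. DEPTOR was also added for NBT under TMM scaling and with the filter of 10 counts. With 5 added reads RHEBL1 was lost for trametinib and for the combination against trametinib. With TPM, CASTOR2 of the amino acid input was added for trametinib and DDIT3 for the combination against NBT.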
